A study of Mus musculus with 16 samples.

Results

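The 10 genes described here are *Pou5f1*, *Sox2*, *Nanog*, *Utf1*, *Zfp42*, *Nr0b1*, *Dnmt3l*, *Dppa5a*, *L1td1*, and *Tdgf1*, which were chosen by name, from the 29629 mouse genes in a table of unique molecular identifier (UMI) counts per single cell. All of them are known for their expression in pluripotent cells, and all 10 were detected. The cells came from iPSCs made from embryonic fibroblasts of *ScxGFP* transgenic mice, in which GFP marks expression of *Scx*, a tendon transcription factor. The fibroblasts had been reprogrammed with Sendai virus vectors for SOX2, OCT3/4, KLF4, and L-MYC, and of several clones the study went on with 1, *ScxGFP* iPSC-20, while the labels of the plates name no clone. The iPSCs were kept on feeder cells in 2i LIF and driven to mesodermal cells with CHIR and cyclopamine. T0 denotes these mesodermal cells without TGF-β2, and T3, T6, and T9 denote such cells after 3, 6, and 9 days in 10 ng/ml TGF-β2. Living single cells were sorted into plates of 384 wells, with 3 plates per time point, and 4594 of 4608 wells held at least 200 detected genes and were used (1147 cells at T0 and 3447 later). A second table held read counts of whole Achilles tendons from 2-week-old mice, 2 Scx-Wt and 2 Scx-homoKO littermates.

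Pluripotent cells can give rise to all tissues of the embryo. Their state rests on a small circuit of transcription factors that bind together and hold one another's genes active, and it is lost as cells enter a lineage such as mesoderm. In iPSC cultures that are led to a tissue such as tendon, the genes of this circuit are commonly followed to see how many undifferentiated cells are left. The core factors are the POU protein *Pou5f1* (Oct4), the HMG-box protein *Sox2*, and the homeodomain protein *Nanog*. *Utf1* is a chromatin-bound factor of undifferentiated cells, *Zfp42* (Rex1) is a zinc finger protein that marks the naive state, and *Nr0b1* (Dax1) is an orphan nuclear receptor that acts mostly as a repressor. *Dnmt3l* is a cofactor, without catalytic activity of its own, of the enzymes that set new DNA methylation. *Dppa5a* and *L1td1* are RNA-binding proteins, and *Tdgf1* (Cripto) is a cell-surface co-receptor for Nodal, a TGF-β family ligand of the early embryo.

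The 10 genes are protein coding and lie apart on 9 chromosomes of GRCm38. *Pou5f1* is at chr17:35506018-35510772 on the plus strand, *Sox2* at chr3:34650405-34652461 on the plus strand, and *Nanog* at chr6:122707489-122714633 on the plus strand. *Tdgf1* and *Dppa5a* lie on the minus strand of chromosome 9, at chr9:110939603-110946158 and chr9:78367052-78368177, and *Zfp42* on the minus strand at chr8:43295063-43306980. The remaining genes lie on the plus strand, *Utf1* at chr7:139943789-139945112, *Dnmt3l* at chr10:78041947-78063622, *L1td1* at chr4:98726734-98738480, and *Nr0b1* at chrX:86191764-86195947. Some of the counts are uncertain because a read could also map to another locus. Of the 36-base words in the last 500 bases of the transcript, 63.2% for *Dppa5a*, 34.8% for *Pou5f1*, and 10.8% for *L1td1* also occur in transcripts of other genes, and none do for the other 7. The 10 genes that share words with *Dppa5a* held 1218 UMIs of their own, against 1359 for *Dppa5a*, while those that share words with *Pou5f1* held 1 UMI and those of *L1td1* none. The antisense gene *Gm19553* overlaps 317 exonic bases of *Pou5f1*, *Aire* overlaps 67 exonic bases of *Dnmt3l* on the opposite strand, and *Sox2* lies within the span of *Sox2ot* with no exonic base shared. In the study's mapping statistics, multi-mapped and ambiguous reads are classes apart from the assigned reads that gave the UMI counts. Reads from shared sequence may therefore be missing from the counts of these genes. How far such sharing moved the counts was not tested.

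The letters that the core factors are known to read were looked up in the promoters of the 10 genes, since most of their transcripts were found in the same few cells. Each window ran from 250 bases before to 50 bases after a RefSeq start on GRCm38.p6. RefSeq windows were at hand for 9 of the 10 genes, 13 windows in all, and not for *Dppa5a*. The octamer-like letters ATGCAAA, on either strand, were present in 4 windows of 3 genes, *Sox2*, *Nanog*, and *Zfp42*, and in 4.63% of all 32817 promoter windows. The letters ACAATG, part of the known Sox motif, were in 12.6% of all windows. In the *Nanog* promoter the 2 motifs stood next to each other, 1 base apart. This arrangement, TTTGCAT followed within 3 bases by ACAATG, was found in 3 of the 32817 windows, and 2 of the 3 are those of the alternative starts of *Nanog*. The stretches of 90 bases around these letters are printed 5′ to 3′ on the strand of the gene, with the motif letters in capitals. They lie at chr3:34649856-34649945 (plus strand, *Sox2*), chr6:122707374-122707463 (plus strand, *Nanog*), and chr8:43307145-43307234 (minus strand, *Zfp42*).
Sox2: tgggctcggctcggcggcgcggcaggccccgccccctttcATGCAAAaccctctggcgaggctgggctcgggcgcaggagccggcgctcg
Nanog: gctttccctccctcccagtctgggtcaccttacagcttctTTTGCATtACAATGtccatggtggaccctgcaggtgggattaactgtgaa
Zfp42: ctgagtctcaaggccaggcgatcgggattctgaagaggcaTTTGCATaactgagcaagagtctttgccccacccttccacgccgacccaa
A match of letters is a description of the sequence and not a measured binding site.

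The plates held 1921125 to 4657093 UMIs in the cells used, and 3 UMIs of a gene in a plate correspond to 0.644 to 1.56 CPM, depending on the plate. Levels are in CPM, that is, per 1000000 UMIs of the plate. CEL-Seq2 counts 1 tag at the 3′ end of each captured molecule, so that CPM does not scale with the length of a transcript. In sums over a plate, fewer cells with a transcript and less transcript per cell cannot be told apart. Pairs of plates from a single time point had a chi-square per gene of 3.18 to 57.6, beyond counting error, and nothing in the labels says whether they came from separate cultures. P-values therefore measure the spread between these plates, which may be technical. From the study's mapping statistics, the plates were divided here into those with more and those with fewer reads outside annotated features. All 3 T0 plates are among the 7 with more, and T9 replicate 3 is the only T9 plate among them.

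Each of the 10 genes had its highest mean level before TGF-β2. At T0, *Utf1* had the highest mean level (214 ± 78.2 CPM, SD, n = 3), followed by *Tdgf1* (136 ± 36.6), *Dnmt3l* (104 ± 40.8), *Sox2* (104 ± 38.2), *Dppa5a* (62.9 ± 25.6), *L1td1* (43.4 ± 14.4), *Nanog* (39.7 ± 24.3), and *Nr0b1* (37.3 ± 21.0). *Zfp42* (3.39 ± 2.09 CPM) and *Pou5f1* (2.87 ± 0.451) were far below the rest, with 76 and 51 UMIs in all 12 plates together. The plate values of neighbours in this order overlapped, apart from *Nr0b1* and *Zfp42*. The places of *Pou5f1* and *Dppa5a* in the order may be too low, since reads in sequence shared with other loci may be missing.

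**Figure D1:**
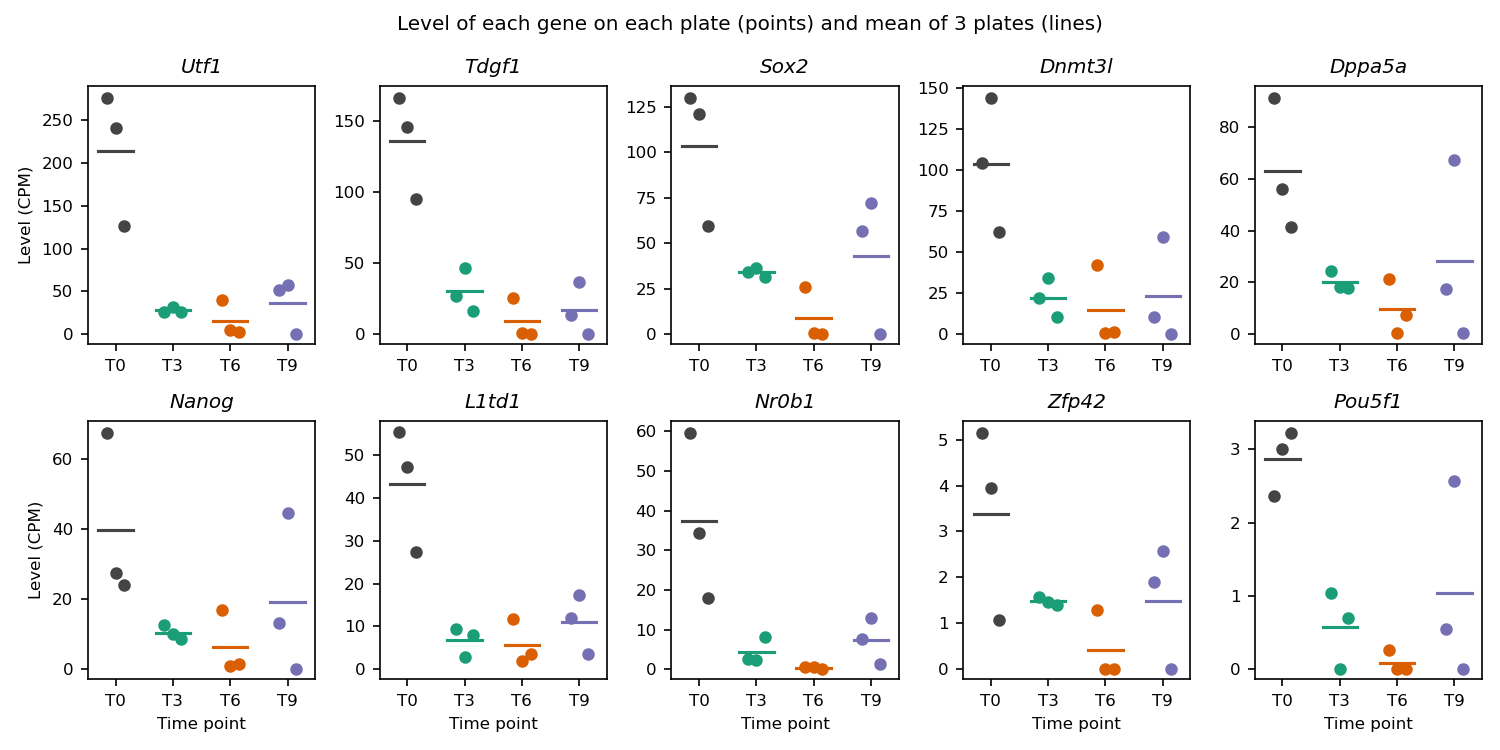
Level of each of the 10 genes in each plate (points, CPM) at T0, T3, T6, and T9, with the mean of the 3 plates as a line. For *Utf1* the 3 T0 plates lie at 126 to 276 CPM and all later plates at or below 57.5 CPM, and T9 replicate 3 lies at or near 0 for all 10 genes.

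*Sox2* stood at 129.9, 121, and 59.7 CPM in the T0 plates, at 34.4, 36.5, and 31.4 CPM at T3, at 26.1, 0.636, and 0 CPM at T6, and at 56.5, 71.9, and 0 CPM at T9. The *Nanog* level was 67.6, 27.6, and 23.9 CPM at T0, 12.5, 9.95, and 8.71 CPM at T3, 16.9, 0.955, and 1.43 CPM at T6, and 13.3, 44.6, and 0 CPM at T9. For both core factors the T0 and T3 plates did not overlap, while the T6 and T9 plates fell apart among themselves, with replicate 1 high at T6 and replicate 3 at 0 at T9. *Pou5f1* stayed below 4 CPM in every plate, at 2.36, 3.01, and 3.23 CPM at T0 and at no more than 2.57 CPM later, with 0 UMIs in 4 of the 9 later plates.

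The factors tied to these had the same outline. *Utf1* fell from 276, 241, and 126 CPM at T0 to 26.5, 31.7, and 26.5 CPM at T3, and was at 40.4, 4.45, and 2.62 CPM at T6 and at 52.1, 57.5, and 0 CPM at T9. *Nr0b1* fell from 59.7, 34.3, and 18.0 CPM to 2.60, 2.21, and 8.01 CPM at T3, was at 0.512, 0.636, and 0 CPM at T6, and rose to 7.60, 12.8, and 1.33 CPM at T9. Unlike those of the other genes, its 3 T9 plates all lay above its 3 T6 plates. *Zfp42* was at 5.15, 3.94, and 1.08 CPM at T0 and between 0 and 2.57 CPM later, and it was the only 1 of the 10 whose T0 and T3 plates overlapped.

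Among the remaining genes, the Nodal co-receptor *Tdgf1* was at 166, 146, and 94.98 CPM at T0, at 27.1, 46.8, and 16.4 CPM at T3, at 25.3, 1.27, and 0.476 CPM at T6, and at 13.3, 36.9, and 0 CPM at T9. The methylation cofactor *Dnmt3l* was at 105, 144, and 62.7 CPM at T0, at 21.9, 34.3, and 10.5 CPM at T3, and between 0 and 59.1 CPM later. For both of them every later plate lay below every T0 plate. *Dppa5a* went from 91.3, 56.0, and 41.4 CPM at T0 to 24.5, 18.4, and 17.8 CPM at T3, but T9 replicate 2, at 67.1 CPM, was again within the range of T0. *L1td1* went from 55.4, 47.2, and 27.4 CPM to 9.37, 2.95, and 8.01 CPM at T3 and was the gene with most UMIs in T9 replicate 3 (3.65 CPM), a plate with 16 UMIs of the 10 genes in all, 11 of them of *L1td1*.

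Counted over plates, all 3 T0 plates lay above all 3 T3 plates for 9 of the 10 genes, against 33.4% of all 13372 genes tested. All 3 T0 plates lay above all 3 T9 plates for 5 of them, *Tdgf1*, *Utf1*, *Dnmt3l*, *L1td1*, and *Nr0b1*, against 43.4% of all genes. All 3 T3 plates lay above all T6 plates for *Sox2*, *Zfp42*, and *Nr0b1* (11.6% of all genes), and all 3 T9 plates lay above all T6 plates for *Nr0b1* (4.85% of all genes).

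Plate sums of all genes were then compared in a single fit of the 12 plates (edgeR quasi-likelihood test, Benjamini-Hochberg adjustment over 13372 genes, called at 0.05). *Pou5f1* and *Zfp42* did not pass the filter on low counts, which leaves 8 of the 10. From T0 to T3, *Nr0b1* fell by 2.81 on the log2 scale (SE 0.70, adjusted p = 0.00753), *L1td1* fell by 2.44 (SE 0.63, adjusted p = 0.00909), and *Utf1* fell by 2.69 (SE 0.95, adjusted p = 0.0421). These 3 were the genes called, against 16.2% of all genes called lower and 33.2% called in either direction. The other 5 had log2 differences from -1.37 (*Sox2*, adjusted p = 0.326) to -2.04 (*Dnmt3l*, adjusted p = 0.167). The spread in this fit is shared with T6 and T9. With only the 6 plates of T0 and T3, all 8 were called lower, with values from -1.36 (*Sox2*, adjusted p = 0.00111) to -2.80 (*Nr0b1*, adjusted p = 0.000809), against 20.7% of all genes called lower and 41.8% in either direction. The *Utf1* call was lost (adjusted p 0.0515 to 0.117) without any 1 of the T0 or T3 plates or without T9 replicate 1.

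Between T3 and T6 no gene of the 8 was called by edgeR (4.24% of all genes), with *Nr0b1* alone at an unadjusted p under 0.05 (log2 difference -3.51, SE 1.17, adjusted p = 0.115). The other 7 had log2 differences from -0.25 (*L1td1*, adjusted p = 0.894) to -1.96 (*Sox2*, adjusted p = 0.393). DESeq2 called *Nr0b1* alone (adjusted p = 0.0134), and edgeR called it without T9 replicate 3 (adjusted p = 0.0391). From T6 to T9, *Nr0b1* rose by 4.56 on the log2 scale (SE 1.06, edgeR adjusted p = 0.0479) and was the only 1 of the 8 called, against 0.935% of all genes called higher and 1.62% called in either direction. The other 7 had log2 differences from 1.06 (*Dnmt3l*, adjusted p = 0.668) to 2.70 (*Sox2*, adjusted p = 0.265). *Nr0b1* had 4 UMIs in all T6 plates and 72 in the T9 plates, and the call was lost in 9 of the 12 fits without 1 plate.

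At T9 as compared with T0, *Nr0b1* fell by 1.77 on the log2 scale (SE 0.64, edgeR adjusted p = 0.0358) and *Tdgf1* fell by 2.42 (SE 0.94, adjusted p = 0.0495). These were 2 of 8 genes, against 21.6% of all genes called lower and 45.2% in either direction. *L1td1* (-1.40, adjusted p = 0.0591) and *Utf1* (-1.91, adjusted p = 0.0990) missed the threshold, and *Nanog* (-0.43), *Dppa5a* (-0.54), and *Sox2* (-0.64) had adjusted p-values of 0.625 to 0.726. *Dnmt3l*, at -1.56 (adjusted p = 0.243), lay between them. None of the genes was called when T0 replicate 1, T0 replicate 2, T9 replicate 1, or T9 replicate 3 was left out (*Nr0b1* adjusted p 0.0693 to 0.177 and *Tdgf1* adjusted p 0.0631 to 0.135). The *Tdgf1* call was also lost without T0 replicate 3 or any 1 T3 plate (adjusted p 0.0510 to 0.0731). Without a filter on low counts, all 10 genes were tested among 29624. From T0 to T3, 8 of the 10 were called, all lower (16.4% of all genes called in either direction), and from T3 to T6, 5 were called, all lower (3.41%). From T6 to T9, 8 were called, all higher (2.31%), and between T0 and T9, 6 were called, all lower (21.9%). Of the 10 genes, *Nr0b1* alone had all 3 T9 plates above all 3 T6 plates. With only the 6 plates of T6 and T9, 0 of 7 genes tested were called, against 45 of 12161 of all genes.

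The genes were next counted as shares of cells with at least 1 UMI. At T0, 40.1% ± 17.7 of the cells (SD, n = 3 plates) held a UMI of *Utf1*, 22.3% ± 9.04 of *Sox2*, 16.2% ± 6.28 of *Tdgf1*, 15.4% ± 5.59 of *Dnmt3l*, 10.8% ± 4.77 of *Dppa5a*, 9.50% ± 3.49 of *L1td1*, 8.37% ± 5.23 of *Nanog*, 6.89% ± 4.80 of *Nr0b1*, 3.05% ± 1.78 of *Zfp42*, and 1.92% ± 0.402 of *Pou5f1*. In the 9 later plates the means were 4.56% for *Utf1*, 4.07% for *Sox2*, and 1.83% for *Nanog*. In the exact permutation test over all 12 plates (two-sided), 8 of the 10 genes reached p = 0.00909, the smallest that the 220 splits allow, with *Nanog* at p = 0.0182 and *Zfp42* at p = 0.0364. These p-values are not adjusted over the 10 genes. The test was not run over all genes, so the share of all genes that would reach such values is not known. T0 cells were deeper than most later cells (plate medians of 9031 to 11492 UMIs per cell at T0 and 4575 to 10097 later), so every cell was also thinned to 3000 UMIs, which leaves 4301 cells. After thinning, *Utf1* was in 19.7% of T0 and 2.39% of later cells, and the exact permutation p was 0.1 for *Pou5f1* and 0.164 for *Zfp42* and at most 0.0182 for the other 8.

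Part of these shares was also present in cells with mesenchymal or tendon transcripts and fewer than 4 of the 10 genes. Having UMIs of at least 3 mesenchymal reference genes does not set kinds of cells apart. Of the 129 cells with 4 or more of the 10 genes, 103 had them too. Among 4305 cells with UMIs of at least 3 mesenchymal reference genes and fewer than 4 of the 10 genes (median of 7982 UMIs), *Utf1* was in 10.8%, *Sox2* in 6.20%, *Tdgf1* in 2.97%, *Nanog* in 1.49%, and *Pou5f1* in 0.0232%. In the 916 such cells of T0, *Utf1* was in 37.2% and *Sox2* in 17.8%, next to 40.1% and 22.3% of all T0 cells. The 297 cells at T6 and T9 with UMIs of *Tnmd*, a marker of mature tenocytes (median of 9553 UMIs), held *Utf1* in 16 cells, *Sox2* in 12, and *Nanog* in 4. *Tdgf1*, *Pou5f1*, *Zfp42*, and *Nr0b1* were found in 0 of the 297 *Tnmd* cells, which allows a share of cells with a UMI of up to 1.01% (a floor of 3 cells, for counting error only). Cells with 4 or more of the 10 genes were left out of the 297. With them, *Tdgf1* was in 2 of 302 *Tnmd* cells, *Zfp42* in 2, *Nr0b1* in 3, and *Pou5f1* in 0.

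Cells with several of the 10 genes stood apart from those with 1 or 2. At T0, 457 cells held none of the 10 genes, 358 held 1, 175 held 2, 65 held 3, 20 held 4, 10 held 5, and 5 held 6. The count then rose again, to 11 cells with 7, 17 with 8, 22 with 9, and 7 with all 10 genes. Cells with 4 or more of the 10 genes are called co-positive cells here. They are a range cut from a count and not a cell type by themselves, and the 65 T0 cells with 3 and the 20 with 4 genes lie on either side of the limit.

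**Figure D2:**
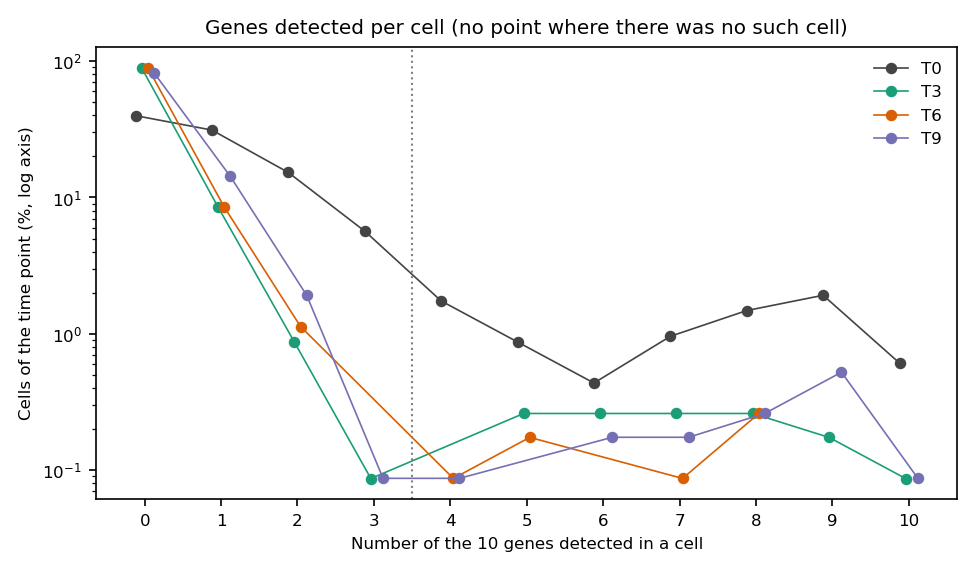
Percentage of the cells of each time point (log axis) by the number of the 10 genes with at least 1 UMI in the cell. The dotted line marks the limit between 3 and 4 genes. At T0 the share falls to 0.436% at 6 genes and rises to 1.92% at 9 genes.

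Of 4594 cells, 129 were co-positive. The T0 plates held 45, 29, and 18 of them, the T3 plates 4, 7, and 4, the T6 plates 5, 1, and 1, and the T9 plates 5, 10, and 0. The 0 of 384 cells in T9 replicate 3 allows a share of up to 0.781% (a floor of 3 cells, for counting error only). The share was 8.02% ± 3.56 at T0 (n = 3) and 1.08% ± 0.834 in the later plates (n = 9), a difference of 6.95 percentage points with an exact two-sided permutation p of 0.00909, the smallest possible. After thinning to 3000 UMIs the shares were 5.99% and 0.934%, and with 6 or more genes in place of 4 they were 5.41% and 0.872%, with the same exact permutation p. Among the 7 plates with more reads outside features, the difference was 7.17 points, with an exact permutation p of 0.0571, the smallest that 35 splits allow. Co-positive T0 cells were deeper, with a median of 17303.5 UMIs against 9839 in the other T0 cells, and 64 of the 92 also had at least 4 of the genes with 2 or more UMIs each. Later co-positive cells had a median of 19164 UMIs against 7428.5 in the other later cells. The single co-positive cells of T6 replicates 2 and 3 held 37762 and 65260 UMIs. These 2 plates had 0 such cells after thinning and 0 cells with 6 or more genes. All plates use the same 384 well barcodes by design, and the 129 cells stood at 111 of them, 16 of which were used in 2 or more plates.

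Most transcripts of the 10 genes were in these few cells. Co-positive cells held 13.2% of all T0 UMIs and 2.67% of later UMIs, but between 79.6% (*Utf1*) and 96.1% (*Pou5f1*) of the UMIs of each gene over all plates. This share follows in part from the choice of the cells by these genes and gets no test. Outside them, 75.9% (*Utf1*) to 100% (*Pou5f1* and *Zfp42*) of the positive cells held a single UMI. Over the 9 plates with at least 4 co-positive cells, 10.0% to 15.4% of the UMIs of the 10 genes lay outside the co-positive cells. In T6 replicate 2, T6 replicate 3, and T9 replicate 3 this part was 44.4%, 47.1%, and 100%, with 16, 33, and 16 UMIs outside. The share of other cells with a UMI of any of the 10 genes was 74.8%, 59.9%, and 36.8% in the T0 plates with 45, 29, and 18 co-positive cells, and 2.60% in T9 replicate 3, which had none. In 3 plates of T6 and T9 with 1, 1, and 0 co-positive cells, it stayed between 2.60% and 4.97%. The wells of a plate are pooled after reverse transcription, and whether single UMIs in other cells came from their own RNA was not tested.

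**Figure D3:**
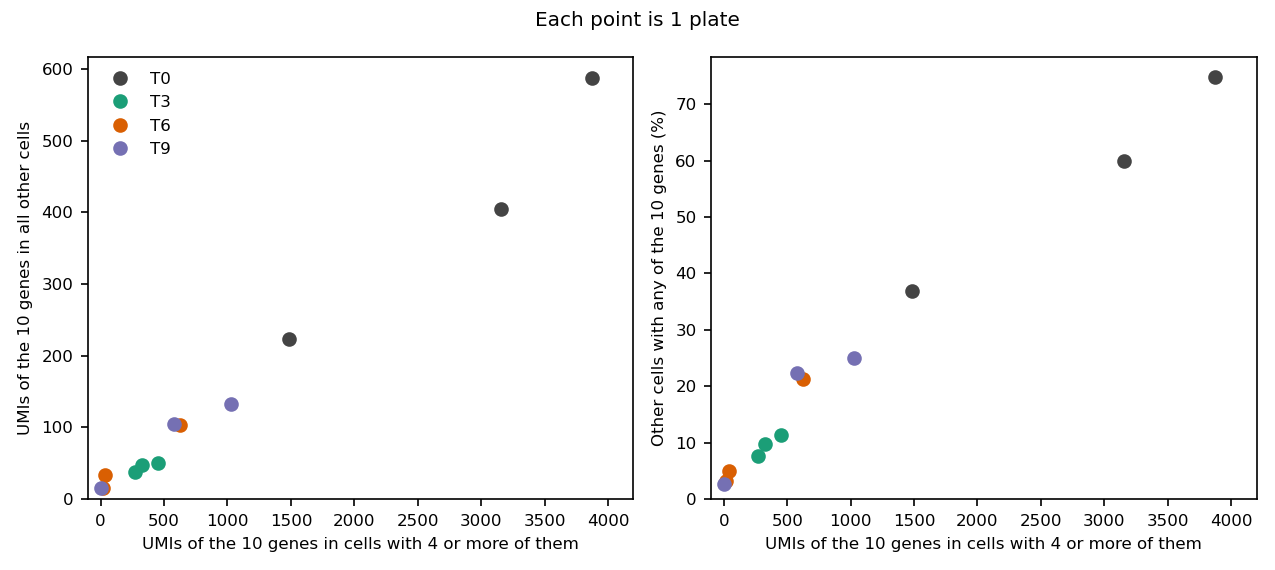
Each point is a plate, with the UMIs of the 10 genes in co-positive cells on the horizontal axes. The vertical axes give the UMIs of the 10 genes in all other cells (left) and the percentage of other cells with any of the 10 genes (right), and both are highest in the T0 plate with 3873 UMIs in co-positive cells and low in T9 replicate 3 with 0.

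Each gene was also looked at in cells chosen by the other 9 alone. Of the T0 cells with at least 3 of the other 9 genes, *Utf1* was in 86 of 99 (86.9%), *Sox2* in 80 of 121 (66.1%), *Dnmt3l* in 81 of 131 (61.8%), *Tdgf1* in 78 of 130 (60.0%), *Dppa5a* in 78 of 143 (54.5%), *L1td1* in 74 of 144 (51.4%), *Nanog* in 65 of 148 (43.9%), *Nr0b1* in 49 of 149 (32.9%), *Zfp42* in 30 of 154 (19.5%), and *Pou5f1* in 20 of 156 (12.8%). In T0 cells with none of the other 9, *Utf1* was in 174 of 631 (27.6%), *Sox2* in 61 of 518 (11.8%), *Nanog* in 13 of 470 (2.77%), and *Pou5f1* and *Zfp42* in 0 of 457 (up to 0.656% by the floor of 3 cells). *Utf1* was the gene most often found without any of the others. Depth moved with these groups, since cells with more UMIs show more genes. After every cell was thinned to 3000 UMIs, *Utf1* was in 63 of 66 cells (95.5%) with at least 3 of the other 9 genes and in 113 of 827 (13.7%) with none. *Sox2* was in 54 of 68 (79.4%) and 40 of 754 (5.31%), and *Nanog* in 34 of 71 (47.9%) and 12 of 726 (1.65%).

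Pairs of genes were counted over all time points, in cells with at least 3 of the remaining 8 genes. Of the cells with *Nanog*, *Sox2* was present in 83 of 88 (94.3%), *Dppa5a* in 84 of 90 (93.3%), and *Tdgf1* in 83 of 90 (92.2%). In the cells without *Nanog*, *Sox2* was in 26 of 63 (41.3%), *Dppa5a* in 28 of 79 (35.4%), and *Tdgf1* in 21 of 67 (31.3%). All 27 cells with a UMI of *Pou5f1* also held *Utf1*, *Sox2*, and *Dppa5a*, and 25 of the 27 held *Nanog*. The naive marker *Zfp42* was in 13 of the 27. These counts are descriptions across cells of a few plates, and cells with *Nanog* were also deeper than those without it (a median of 19018.5 against 15453 UMIs in the comparison with *Sox2*).

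Among cells with 6 or more of the 10 genes, the genes differed in how evenly they were spread. There were 92 such cells over all time points, 62 from T0 and 30 later, a set chosen by these genes and not that of the 92 co-positive T0 cells. *Dppa5a* was detected in all 92, *Utf1* in 91, *Sox2* in 90, *Tdgf1* in 89, *Dnmt3l* in 88, *L1td1* in 84, *Nanog* in 83, *Nr0b1* in 59, *Zfp42* in 44, and *Pou5f1* in 27. The median level over these 92 cells was 1325 CPM for *Utf1*, 961 for *Tdgf1*, 888 for *Sox2*, 684 for *Dnmt3l*, 581 for *Dppa5a*, 339 for *L1td1*, and 338 for *Nanog*. Relative to its mean, *Nr0b1* varied most among the genes found in more than 44 of the cells (coefficient of variation 1.38). Its lower quartile was 0 and its upper quartile 439.8 CPM, around a median of 87.0 CPM. *Zfp42* and *Pou5f1*, found in fewer of the cells, had higher coefficients of variation (1.47 and 2.06) and medians of 0.

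The level in co-detecting cells was then compared between T0 and later plates with at least 3 such cells (3 plates of T0 and 6 later, cells chosen by the other 9 genes, no test). *Sox2* was at 449 to 642 CPM at T0 and at 667 to 1617 CPM later, a ratio of the means of 1.86, and the plates did not overlap. The make-up of these cells also differed, with *Sox2* in 69.8% ± 13.2 of them at T0 and in 91.0% ± 11.1 later, and what part this had in the ratio was not tested. For *Zfp42* the values were 8.28 to 17.3 CPM and 24.2 to 66.7 CPM, a ratio of 3.27 that rests on 3 to 8 UMIs per later plate. The plates of the other 8 genes overlapped. The share of all genes whose T0 and later plates do not overlap in such cells was not counted. *Nanog* had a mean of 196 ± 63.5 CPM at T0 and 404 ± 127 CPM later, and *Utf1* had 1275 ± 205 CPM and 958 ± 285 CPM. For none of the 10 genes did all 6 later plates lie below the T0 plates in these cells.

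**Figure D4:**
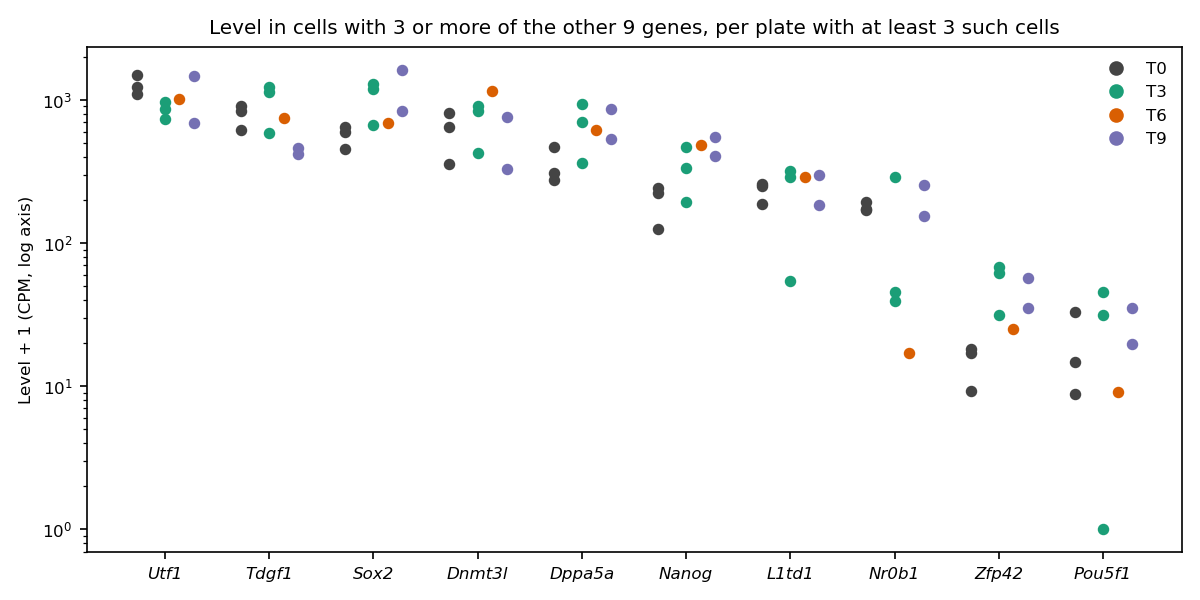
Level of each gene (CPM + 1, log axis) in cells with at least 3 of the other 9 genes, per plate, for T0 and for later plates with at least 3 such cells. The later points of *Sox2* (667 to 1617 CPM) lie above its T0 points (449 to 642 CPM), and for *Tdgf1*, *Dnmt3l*, *L1td1*, and *Pou5f1* the T0 points lie within the range of the later ones.

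To describe what else these cells expressed, UMIs of co-positive T0 cells and of the other T0 cells were summed per plate and compared with the plate as a block (edgeR quasi-likelihood test with Benjamini-Hochberg adjustment, 11887 genes without the 10). Of all genes, 35.9% were called, 18.1% higher and 17.9% lower in co-positive cells, with a median log2 difference of -0.02. The 5 largest differences upward among genes with at least 100 UMIs whose plates did not overlap were those of *Mep1b* (7.10, SE 0.46), *Lefty1* (7.02, SE 0.44), *Morc1* (6.95, SE 0.43), *Phf11d* (6.72, SE 0.41), and *Tdh* (6.72, SE 0.29), all with adjusted p-values of at most 2.04e-09. *Lefty1* is a secreted inhibitor of Nodal, and *Tdh*, threonine dehydrogenase, is an enzyme known for its high activity in mouse pluripotent cells. In *Tdh* the co-positive cells of the 3 plates had 257, 163, and 154 CPM and the other cells 3.17, 1.85, and 0.291 CPM. Among the largest differences downward were *Meox1*, a homeobox gene of the somite (-4.49, SE 0.84, adjusted p = 0.000412), *Itpripl2* (-4.35, SE 0.63, adjusted p = 3.44e-05), and *Pde10a* (-4.17, SE 0.89, adjusted p = 0.00131). *Gm26523* and *B630019K06Rik* had 0 UMIs in co-positive cells and 9.71 and 10.7 CPM in the others.

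Most genes of other lists of pluripotent cells were also higher in co-positive cells. All 14 other genes of pluripotent cells were called higher (median log2 difference 3.25), such as *Tet1*, a 5-methylcytosine oxidase (2.86, SE 0.13, adjusted p = 2.69e-11), *Sall4* (2.45, SE 0.14, adjusted p = 3.07e-10), *Mybl2* (3.52, SE 0.16, adjusted p = 3.24e-11), and *Trim71* (1.37, SE 0.21, adjusted p = 7.02e-05). Of 12 naive state factors, 10 were called higher and 1 lower (median 4.67). *Esrrb* (5.87, SE 0.23) and *Klf5* (2.27, SE 0.22) were among the higher genes, while *Stat3*, the transducer of LIF signals, was lower (-1.43, SE 0.17, adjusted p = 3.64e-06) and *Tbx3* had -0.36 (SE 0.18, adjusted p = 0.120). Of 9 formative and primed state genes tested, 7 were called higher and none lower (median 2.88), with the methyltransferases *Dnmt3b* (3.47, SE 0.19) and *Dnmt3a* (1.06, SE 0.12), the partners of *Dnmt3l*, while *Lef1* had 0.13 (adjusted p = 0.684). Genes of both states were higher in co-positive cells of the same plates.

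**Figure D5:**
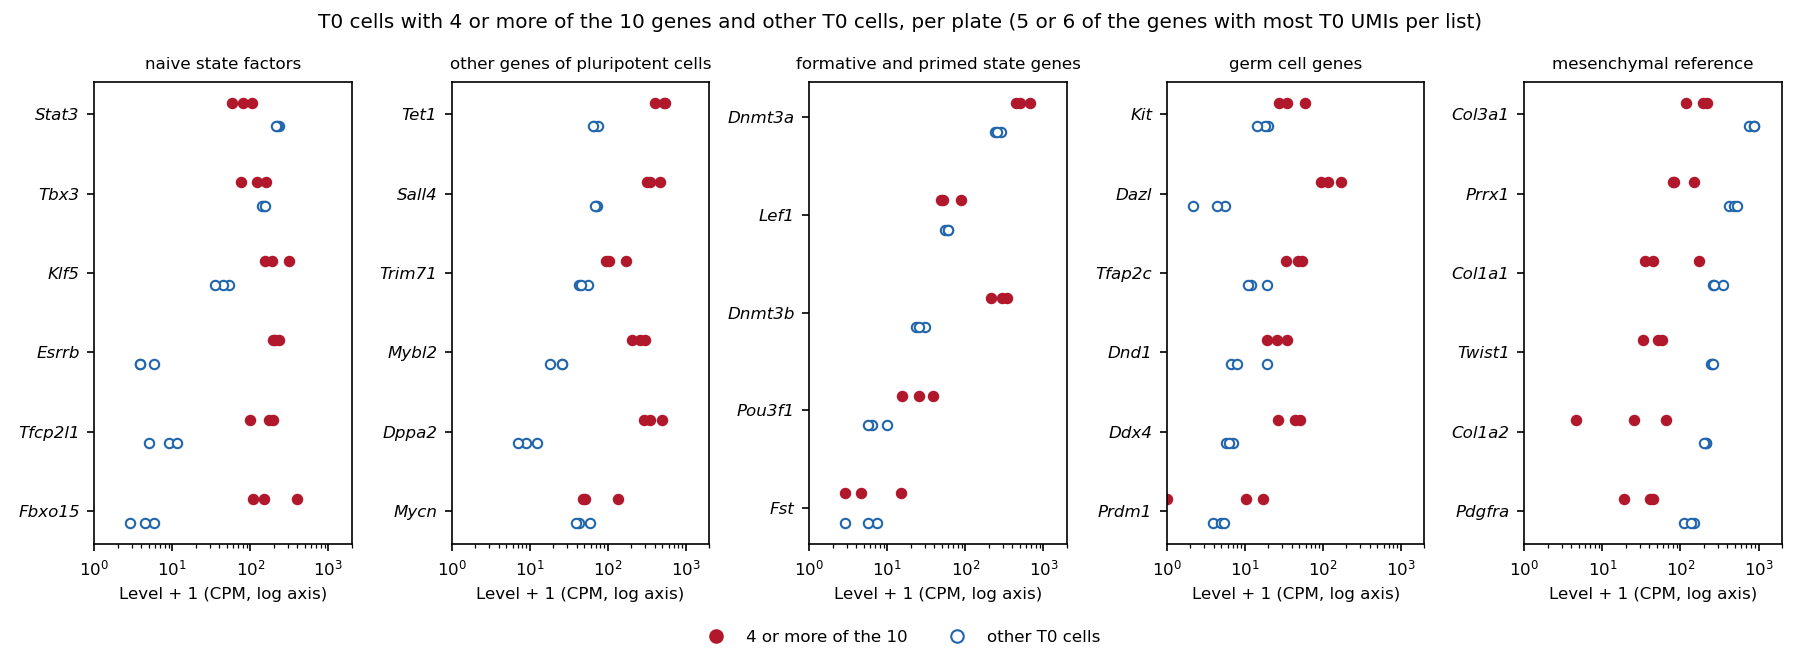
Level (CPM + 1, log axis) of 5 or 6 of the genes with most T0 UMIs in each of 5 lists in co-positive T0 cells (filled) and in the other T0 cells (open), 1 point per plate. Genes of the lists of pluripotent cells, such as *Esrrb*, *Tet1*, and *Dnmt3b*, lie to the right in co-positive cells, and mesenchymal genes such as *Col3a1* and *Twist1* lie to the left.

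Genes of the Nodal pathway, in which *Tdgf1* acts, were divided. Of 9 tested, 4 were called higher, among them *Lefty1*, *Lefty2*, and *Nodal*, and 1 lower (*Smad3*, -1.19, SE 0.19, adjusted p = 7.98e-05), with a median of 0.01, and *Smad4* (-0.32, adjusted p = 0.117) and *Acvr2b* (-0.21, adjusted p = 0.486) were not called. Of 8 germ cell genes tested, 6 were called higher (median 1.83), among them *Dazl* (5.28, SE 0.35), *Tfap2c* (1.71, SE 0.33), *Dnd1* (1.35, SE 0.46), and the receptor *Kit* (1.15, SE 0.33). Of 3 primitive streak and mesoderm genes tested, 1 was called higher, and *T* and *Mixl1* had 0 UMIs in co-positive cells. Both were also very low in the other T0 cells (0.276 and 0.184 CPM, without the 10 cells with at least 5 UMIs of *Utf1*). The 0 therefore does not set the co-positive cells apart. The dividing cell list had 5 genes called higher and 1 lower of 8 (median 0.38), with *Cdk1* at 0.69 (SE 0.11) and *Mki67*, lower, at -0.46 (SE 0.15).

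Markers of other cell types differed in both directions. Of 12 mesenchymal reference genes, 10 were called lower and 1 higher (median -2.24), and their summed level was 364 to 828 CPM in co-positive cells of the 3 plates and 2246 to 2389 CPM in the others. The log2 difference was -2.17 (SE 0.15) for *Col3a1*, -2.10 (SE 0.18) for *Prrx1*, -2.32 (SE 0.18) for *Twist1*, and -1.805 (SE 0.24) for *Col1a1*. Of 6 tendon genes tested, 5 were called lower and none higher (median -2.14), and *Tnmd* and *Kera* were at 0 in both. Of 8 epithelial genes, 3 were called higher and none lower (median 0.07), with a summed level of 572 to 1097 CPM against 361 to 523 CPM. Of 3 endothelial genes tested, 2 were called higher and none lower (median 1.80), with a summed level of 49.2 to 53.6 CPM against 11.3 to 17.4 CPM. These were the adhesion molecule *Pecam1* (5.62, SE 0.94, adjusted p = 0.000147) and *Egfl7* (1.80, SE 0.43, adjusted p = 0.00325), while *Cdh5* and *Kdr* were at 0 in co-positive cells. The *Egfl7* call was lost without T0 replicate 2 (adjusted p = 0.0637) and after thinning (adjusted p = 0.181). Of 4 neural genes tested, 1 was called higher (*Tubb3*, 2.92, SE 0.43) and 1 lower (*Nes*, -2.04, SE 0.34), with a median of 0.62, and the 9 genes of the list summed to 70.0 to 94.7 CPM against 43.4 to 63.8 CPM. Of 11 parietal endoderm genes tested, 3 were called higher and 3 lower (median -0.23), with *Sparc* at -0.70 (SE 0.10), *Gata6* at -1.57 (SE 0.28), and *Lamc1* at 1.16 (SE 0.22), and the 14 genes of the list summed to 764 to 1081 CPM against 1097 to 1343 CPM. Of the 92 co-positive T0 cells, 68 also had UMIs of at least 3 mesenchymal reference genes. No doublet caller was run here, the sort had gated out doublets, and the part of doublets in these cells was not tested.

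Later co-positive cells were described in the same way, without a test. In the 6 later plates with at least 3 such cells, the 10 genes summed to 4578 to 6049 CPM in co-positive cells, next to 4446 to 5971 CPM at T0. The 14 other genes of pluripotent cells summed to 2119 to 3100 CPM in them and to 76.1 to 159.8 CPM in the other cells of the same plates. Mesenchymal reference genes summed to 734 to 3075 CPM against 8811 to 32322 CPM. Germ cell genes summed to 222 to 695 CPM against 11.2 to 29.8 CPM. The parietal endoderm genes ranged widely between plates, at 156 to 9373 CPM (median 1090) against 1567 to 7380 CPM (median 4733). In co-positive cells at T0 they had summed to 764 to 1081 CPM. The remaining lists are not given here for later cells. *Scx* was detected in 15 of the 37 later co-positive cells, at 31.5 CPM, and in 2274 of 3410 other later cells, at 483 CPM. *Tnmd* was detected in 5 of the 37. Of the 37 cells, 35 had UMIs of at least 3 mesenchymal reference genes. They were also deeper than the other later cells (median of 19164 against 7428.5 UMIs), and what part depth or doublets had in these detections was not tested.

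Over whole plates, the same lists were counted between time points in the fit of 12 plates, in which 33.2% of all genes were called from T0 to T3 (16.2% lower) and 45.2% between T0 and T9 (21.6% lower). Of the 14 other genes of pluripotent cells, 8 were called lower at T3 than at T0 and none higher (median -2.00), with *Trim71* at -2.95 (SE 0.37, edgeR adjusted p = 3.96e-05), *Sall4* at -2.87 (SE 0.53, adjusted p = 0.000939), *Mybl2* at -1.40 (SE 0.51, adjusted p = 0.0491), and *Tet1* at -0.74 (SE 0.27, adjusted p = 0.0468). At T9 as compared with T0, 8 of the 14 were called lower and none higher. Of 11 naive state factors tested, 2 were called higher and 1 lower at T3 (median -0.64), and 2 higher and none lower at T9 as compared with T0. Of 7 formative and primed genes tested, 1 was called higher and 2 lower at T3, with *Dnmt3b* at -3.66 (SE 0.43, adjusted p = 2.52e-05). Of 8 Nodal pathway genes, 1 was called higher and 3 lower, and of 7 germ cell genes, 1 was called higher and 2 lower. The median over all genes was 0.01 from T0 to T3.

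The genes whose pattern was most like that of the 10 genes were ranked by the share of their T0 UMIs found in co-positive cells, among 9785 genes with at least 100 UMIs at T0, over the cells of 3 plates. The share had a median of 12.7% over these genes, near the 13.2% of all UMIs that the co-positive cells held, and 117 genes were over 50%. The highest were *Mep1b* (95.5%), *Morc1* (95.1%), *Lefty1* (94.9%), *Tdh* (94.6%), *Arl14epl* (94.6%), *Phf11d* (94.5%), *Fgf4* (94.0%), *Ooep* (91.6%), *Stra8* (91.5%), and *Trh* (91.4%). The 10 genes themselves ranged from 79.1% for *Utf1* and 84.8% for *Sox2* to 94.4% for *Dppa5a* and for *Pou5f1*. In later cells, most of these genes were again found mainly in co-positive cells, such as *Ooep* (96.9% of its UMIs) and *Mep1b* (92.2%), but *Lefty1* (31.2%) and *Trh* (47.1%) were not.

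In whole Achilles tendon the 10 genes were at or near the limit of detection. The samples had 11188270 to 12398560 counts, and *Scx*, the targeted gene, stood at 103 and 81.3 CPM in Scx-Wt and at 23.1 and 25.1 CPM in Scx-homoKO. *Nanog*, *Zfp42*, and *Nr0b1* had 0 reads in all 4 samples, where 3 reads correspond to 0.242 to 0.268 CPM. *Sox2* had 7 and 2 reads in Scx-Wt and 2 and 0 in Scx-homoKO, *Dnmt3l* had 0 and 0 and then 4 and 4, *Tdgf1* had 6 and 0 and then 1 and 0, and *Pou5f1* had 6 in 1 Scx-Wt sample and 0 in the other 3. *Utf1* had 3 reads and *L1td1* had 1 read, each in 1 Scx-homoKO sample, and 0 in the other 3. *Dppa5a* was the only 1 of the 10 to pass the filter on low counts, with 22 and 25 reads in Scx-Wt and 3 and 1 in Scx-homoKO. Its log2 difference was -3.49 (SE 0.97, edgeR adjusted p = 0.0924), which was not called at 0.05, against 3.84% of 14602 genes called. Whether these reads came from *Dppa5a* or from the loci that share its sequence was not tested.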

How the data were processed

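Single cells of *ScxGFP* iPSC-derived cultures (12 plates) were profiled by CEL-Seq2, and whole Achilles tendons (4 samples) by bulk RNA-seq. The deposited values are counts: UMI counts per gene and well, made by the authors with Trim Galore for trimming, HISAT2 2.2.1 for alignment to GRCm38, and featureCounts and UMI-tools 1.0.1 for counting, and read counts per gene for the tendons, made with HISAT2 2.0.4 and featureCounts 1.5.0. The annotation release and the strand setting are not given in the sources used here. None of the values had been normalized. Of 29632 entries, 3 that name no Ensembl gene (0.0642% of UMIs) were left out. Wells with at least 200 genes were kept, and the study's further filter (genes in more than 3 cells) left the same 4594 cells, slightly more than the study states. No doublet caller was run.

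UMIs were summed per plate, with 1921125 to 4657093 UMIs per plate and 11188270 to 12398560 counts per tendon, and fitted with edgeR 4.0.16 in R 4.3.3 (filterByExpr, TMM, quasi-likelihood test, Benjamini-Hochberg adjusted p of 0.05 over all genes tested). All 12 plates were in 1 fit without a block, co-positive T0 cells were compared with the plate as a block, and the tendons were fitted apart. DESeq2 1.42.0, other filters, blocks, and thinning were alternatives. Shares were compared by exact permutation of plates in scipy 1.17.1 (Python 3.11.15, pandas 2.3.3, numpy 2.4.6), and matplotlib 3.10.9 drew the plots. Intervals and floors cover counting error only. On simulated data with 200 genes changed 3-fold, edgeR recovered 63.5% between T9 and T0 (13372 genes, 8 false calls), 76% in the co-positive comparison (11897 genes, 5 false calls), and 74.5% in tendon (14602 genes, 24 false calls).

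The 10 genes, the other lists, and the tests were chosen with earlier results of these data known. All 10 genes are named, or given by their range, in each comparison, unless they were not tested in it. Of each other list, counts are given with up to 4 examples, those with the most UMIs in T0 cells (3 for the Nodal list, of which 3 genes called higher were also named after their values were seen). For the co-positive comparison the 5 largest changes in each direction among called genes with at least 100 UMIs and plates that do not overlap are named, and as most alike the 10 genes with the largest share of T0 UMIs in co-positive cells. A few list genes are not reported by name here. *Foxh1* and *Msgn1* of the lists were not found under these symbols. Gene positions and overlaps are from GENCODE vM21 and promoters from RefSeq, both on GRCm38. Time points share plates between comparisons. Same-numbered plates of different time points deviated from their group means with correlations of -0.564 to 0.503, so the numbers were not taken to pair the plates.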

Additional observations from a re-analysis of the deposited data

How the results depend on the processing

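The number of the 10 genes called depended on the fit. From T0 to T3, the 3 calls of 8 genes tested became 2 with DESeq2, 4 of 10 with the library split as a covariate, 8 of 10 without a filter on low counts and 8 with only the 6 plates compared, and ranged from 2 to 4 without 1 plate. The calls over all genes in these fits were 4723 of 13372, 5186 of 13992, 4853 of 29624, and 5151 of 12335. Without 1 plate they ranged from 3001 of 13584 to 5084 of 14092. From T3 to T6, the 0 calls became 1 with DESeq2 and 5 without a filter, and were 0 to 1 without 1 plate. Over all genes, DESeq2 called 899 of 13372, and 1010 of 29624 were called without a filter. Without 1 plate the calls ranged from 291 of 13624 to 890 of 14092. From T6 to T9, the 1 call became 8 without a filter and 0 with only the 6 plates compared, and was 0 to 3 without 1 plate (3 without T9 replicate 3). Of all genes, 684 of 29624 were called without a filter and 45 of 12161 with only the 6 plates compared. Without 1 plate the calls ranged from 35 of 13683 to 852 of 14038, the latter without T9 replicate 3. At T9 as compared with T0, the 2 calls of 8 became 1 with DESeq2, 1 with its size factors in edgeR, 6 of 10 without a filter, 5 of 10 with the library split as a covariate (6500 of all 13992 genes called), 3 of 8 with only the 6 plates compared, and 1 in cells with at least 1000 genes, and were 0 to 4 without 1 plate. Over all genes, DESeq2 called 6186 of 13372 and edgeR with its size factors 6039 of 13372. The calls were 6491 of 29624 without a filter, 6291 of 12547 with only the 6 plates compared, and 6007 of 13375 in cells with at least 1000 genes. Without 1 plate they ranged from 4774 of 13618 to 6684 of 14092. With the plate number as a replicate block, the calls were 3, 0, 0, and 4 in these 4 comparisons and 0 in tendon. Over all genes they were 4034, 399, 109, and 5732 of 13992, and 1108 of 14602 in tendon. Same-numbered plates shared only a number.

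Between co-positive and other T0 cells, edgeR called 4272 and DESeq2 2654 of 11887 genes, and 1825 of 8328 genes tested were called after thinning to 3000 UMIs. Without 1 plate the count was 2663 to 3969, lowest without T0 replicate 2, without the replicate block it was 4161, and with 2 UMIs for a gene to count, an alternative chosen after seeing the data, it was 5178. The share of co-positive cells differed by 7.17 points (exact permutation p = 0.0571) among plates with more reads outside features. At T9 as compared with T0, the log2 difference of *Nanog* was -1.93 to 0.17 without 1 plate (above 0 without T0 replicate 1, 0.16, or T9 replicate 3) and that of *Dppa5a* -2.19 to 0.052 (above 0 without T9 replicate 3). *Lef1* in co-positive cells was at -0.012 without a filter and at -0.17 to 0.27 without 1 plate. The cause was not tested. Shares positive had a permutation p of at most 0.05 for 10 genes, 9 with 2 UMIs, and 8 after thinning. The p-values are unadjusted, and the permutation test was not run over all genes. At the depth of these plates *Pou5f1* and *Zfp42*, with 51 and 76 UMIs, did not pass the filter of the 12-plate fit and were tested only in alternatives.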

Other observations

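*Utf1* was also found at several UMIs in a few cells that were not co-positive. There were 10 such cells with at least 5 UMIs of *Utf1*, all from T0 (6, 1, and 3 in the plates), with a median of 17789 UMIs. *Dnmt3l* was detected in 4 of them, *Tdgf1* in 1, and *Nanog* in 0. They were chosen after their values were seen, so that no test is given. In these 10 cells the summed level of the epithelial keratin gene *Krt18* was 1600 CPM against 171 CPM in the other cells of the same plates that were not co-positive, that of the epithelial cadherin *Cdh1* was 886 against 70.0 CPM, and that of *Tfap2c*, a transcription factor of trophoblast, surface ectoderm, and germ cells, was 443 against 6.64 CPM. *Krt8* (166 against 18.1 CPM), *Krt19* (141 against 20.3 CPM), and *Epcam* (239.9 against 18.8 CPM) were also higher. In co-positive cells of all plates *Krt18* was at 100.4 CPM, *Cdh1* at 279 CPM, and *Tfap2c* at 69.2 CPM.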
